A study of Mus musculus with 3 samples.

Results

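The CD8 T cells described here carried transcripts of Havcr2, the gene of the inhibitory receptor TIM-3, and were found among immune cells sorted by flow cytometry as CD45+ from the sciatic nerve. They were chosen in each library by raw UMI counts (unique molecular identifiers, which count captured transcripts): at least 1 UMI of Cd3d, Cd3e or Cd3g, at least 1 of Cd8a or Cd8b1, at least 1 of Havcr2, none of Cd4, Cd79a, Mki67 or Top2a, and at most 1 of the C1q genes. The rule found 322 cells of 13637 kept, of which 1930 were CD8 T cells of the same gate with any number of Havcr2 UMIs. The other 1608 CD8 T cells had no Havcr2 UMI and are called Havcr2-negative. Because the rule read the values of its own genes, these values are given as a description, without a test.

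The nerves came from neuropathic NOD.AireGW/+ mice, in which partial loss of function of Aire, a gene of immune tolerance, is combined with the NOD strain, itself prone to autoimmunity, and whose nerves become inflamed spontaneously. In all, 3 libraries were sequenced with the 10x Genomics 5′ chemistry: the first and second were each made from the nerves of 1 mouse, and the third from 2 pooled mice. There was 1 group and no control group, and the ages of the mice were not given in the sources used here. The labels give no sex per library, and the study's methods state that females were used, apart from a knockout experiment that is not part of these libraries. Every comparison below is therefore between classes of cells of the same nerves. The libraries held 3926, 8311 and 1533 barcodes, of which 3848, 8256 and 1533 passed the limits of 5000 genes and 20% mitochondrial UMIs, with a median of 3956, 4632.5 and 1726 UMIs per cell.

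TIM-3 belongs to the inhibitory receptors that CD8 T cells acquire when antigen persists, together with PD-1 (Pdcd1), LAG-3 (Lag3), CTLA-4 (Ctla4) and TIGIT (Tigit). In chronic infection and in tumours such cells also express the transcription factor TOX and have lost TCF1 (Tcf7), the factor that marks the self-renewing cells from which they arise. Exhausted cells of this kind can still make chemokines such as CCL3 and CCL4 and can retain part of their cytotoxic genes.

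Library 1 held 211 of the Havcr2-positive CD8 T cells, library 2 held 98 and library 3 held 13. They were 25.7% of the CD8 T cells in library 1 (exact 95% binomial interval 22.8 to 28.9%), 11.3% in library 2 (9.28 to 13.6%) and 5.33% in library 3 (2.87 to 8.94%), a mean of 14.1% ± 10.5 (SD, n = 3 libraries). The interval of library 1 did not overlap that of either other library. When every cell was thinned to 1000 UMIs, so that all were read at equal depth, the shares were 13.4%, 5.21% and 3.75%. The order of the libraries was the same at both depths. All intervals cover counting error only.

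A Havcr2 UMI was rarely found in cells that should lack the gene. Among B cells, 4 of 236 in library 1 had one (1.69%), 1 of 325 in library 2 (0.308%) and 0 of 81 in library 3, at median depths of 3948.5, 3051 and 1710 UMIs against 3962, 3293.5 and 2098 in all CD8 T cells. Macrophages, which transcribe Havcr2, had one in 653 of 1844 cells in library 2 (35.4%). Of the 322 CD8 T cells, 153 had exactly 1 Havcr2 UMI, 68 had 2 and 101 had 3 or more, with a highest value of 13. A cell with 1 UMI lies just inside the rule. The Havcr2-positive cells were deeper than the Havcr2-negative ones, with a median of 4355, 5802.5 and 3346 UMIs in libraries 1, 2 and 3 against 3915, 3156.5 and 2042.

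A second set of transcripts stood apart within these cells. In 37 of the 322 cells (15 in library 1, 22 in library 2, none in library 3) at least 10 UMIs came from the 4 MHC class II genes Cd74, H2-Aa, H2-Ab1 and H2-Eb1, which antigen-presenting cells express. These cells had a median of 15979 and 12475 UMIs and contributed 19.4% and 41.3% of all UMIs of the Havcr2-positive cells in libraries 1 and 2, while the corresponding Havcr2-negative cells contributed 5.44%, 9.76% and 6.64% in libraries 1, 2 and 3. All 17 of 17 macrophage and monocyte markers had UMIs in the Havcr2-positive cells of libraries 1 and 2, and their summed level was 9036, 19700 and 1203 CPM (UMIs of a gene per 1000000 UMIs of the class) against 2948, 3895 and 1557 CPM in the Havcr2-negative cells. Without the MHC class II-high cells it was 1079, 1813 and 1203 CPM, with Csf1r at 0 in all 3 libraries. Macrophages themselves had 75244, 138593 and 78977 CPM. Each comparison below is therefore given for all cells and again without the MHC class II-high cells of both classes. That limit was chosen after the data were seen.

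Markers of other cell types were read in the same way. Dendritic cell markers summed to 196, 240 and 0 CPM in the Havcr2-positive cells against 170, 111 and 12.8 CPM, and without the MHC class II-high cells to 36.0, 81.3 and 0 CPM against 85.5, 34.8 and 11.7 CPM. Markers of γδ T cells were at 377, 365 and 150 CPM against 507, 482 and 296 CPM in the Havcr2-negative cells, and markers of NK cells at 328, 174 and 193 CPM against 361, 175 and 232 CPM. Regulatory T cell markers were at 1586, 1175 and 1246 CPM against 1310, 986 and 716 CPM. B and plasma cell markers were at 206, 111 and 172 CPM against 641, 125 and 110 CPM, and Schwann cell markers at 137, 99.7 and 64.4 CPM against 191, 148 and 93.1 CPM. Of these 6 lists, only the regulatory T cell markers were higher in all 3 libraries in all cells. That list contains Ctla4 and Ikzf2, which CD8 T cells also express. In the test described below, Ctla4 and Areg of its 7 genes tested were higher and Ikzf2 was lower. Foxp3, which the rule did not exclude, had a UMI in 12 of 211, 5 of 98 and 0 of 13 Havcr2-positive cells. Between 7 and 36 barcodes were shared between pairs of libraries, 1 of them carried by a Havcr2-positive CD8 T cell in library 1.

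The remaining genes that mark the label were present. Pdcd1, the gene of PD-1, was at 1022, 491 and 1181 CPM in the 3 libraries, against 560, 477 and 535 CPM in their Havcr2-negative cells. Without the MHC class II-high cells it was at 1232, 698 and 1181 CPM against 582, 489 and 549 CPM, and the gap in library 2 was then wider. Ccl3, a chemokine of activated T cells, was at 858, 1189 and 430 CPM against 149, 245 and 49.3 CPM. Rgs16, a regulator of G protein signalling, was at 710, 401 and 387 CPM against 319, 195 and 363 CPM, and was close to its comparator in library 3. Adgrg1, an adhesion G protein-coupled receptor of cytotoxic lymphocytes, was at 133, 51.9 and 43.0 CPM against 25.2, 10.9 and 1.83 CPM. In B cells, Pdcd1 was at 11.7, 1.06 and 5.95 CPM and Adgrg1 at 0.686, 0 and 0 CPM. Within single cells, all 4 of Pdcd1, Ccl3, Rgs16 and Adgrg1 had a UMI in 44 of 211, 18 of 98 and 1 of 13 cells, and none of the 4 did in 14, 10 and 0 cells. The label markers were thus found in the class as a whole and not in each of its cells.

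The first comparison asked how the Havcr2-positive cells differed from the other CD8 T cells of the same nerves. UMIs were summed per library and class and tested with edgeR's quasi-likelihood test with the library as a block, and p-values were adjusted by the Benjamini-Hochberg method over all genes tested, with a threshold of 0.05. Of 7399 genes, 259 (3.5%) were higher and 207 (2.8%) were lower in the Havcr2-positive cells, 6.3% in all. Without the MHC class II-high cells, 211 of 6686 genes (3.16%) were higher and 289 (4.32%) were lower, 7.48% in all. The median log2 difference over all genes was -0.01 and -0.04, respectively. Without library 1, 2 or 3 in turn, the number of genes past the test was 159, 187 and 689. With the libraries not paired by a block, 10 genes passed. The p-values rest on 3 libraries, and library 3 enters with 13 cells and 46560 UMIs, in which a count of 0 allows up to 64.4 CPM.

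The clearest difference lay in genes of the stem-like and resting state. Of 15 listed genes, 13 were tested, of which 9 were lower (among them Tcf7, Lef1, Slamf6, Il7r, Ccr7, S1pr1, Klf2 and Klf3) and 1, Id3, was higher, with a list median of -1.53. Once the MHC class II-high cells were left out, 9 of 12 were lower and none was higher, with a median of -1.88. Tcf7, which encodes TCF1, was at 14.9, 8.42 and 0 CPM in libraries 1, 2 and 3 against 129, 83.2 and 73.0 CPM in the Havcr2-negative cells. The classes did not overlap, and the log2 difference was -3.18 ± 0.28 (SE; edgeR adjusted p = 6.77e-26). Only 9 of 211, 4 of 98 and 0 of 13 Havcr2-positive cells had a Tcf7 UMI, and at 1000 UMIs per cell the share was 0.357% ± 0.617 against 8.62% ± 1.67 in Havcr2-negative cells and 0.103% in B cells (mean ± SD, n = 3 libraries). The thinned share in the Havcr2-positive cells thus came from 2 cells.

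The receptor and egress genes of this list moved with Tcf7. Il7r, the receptor for the survival cytokine IL-7, was at 48.1, 57.5 and 85.9 CPM against 303, 208 and 239 CPM, a log2 difference of -2.24 ± 0.19 (edgeR adjusted p = 2.06e-27). S1pr1, which guides T cells out of tissue, was at 30.7, 14.0 and 0 CPM against 164, 70.5 and 94.9 CPM (-2.42 ± 0.25). Klf2, the factor that drives S1pr1 transcription, was at 168, 98.3 and 107 CPM against 519, 290 and 378 CPM (-1.62 ± 0.17), and Klf3 differed by -2.08 ± 0.24. The classes did not overlap for any of these genes. Here and wherever overlap is described, the share of all genes tested without overlap was not counted. Ccr7, a receptor for homing to lymph nodes, was at 126, 33.7 and 0 CPM against 253, 188 and 296 CPM (-1.62 ± 0.18). Leaving out library 1, 2 or 3 left 7, 8 and 10 genes of this list lower. Lef1 (-1.28) did not pass without library 1, Slamf6 (-0.76) did not without library 2, and Id3 did not without either of them (0.72 and 1.16). Tcf7 and Il7r passed the test under each of the 17 alternatives that were run, and S1pr1 and Klf3 under 16. These alternatives included leaving out cells under 300 UMIs, which removed no cell and could not change a result.

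**Figure D1:**
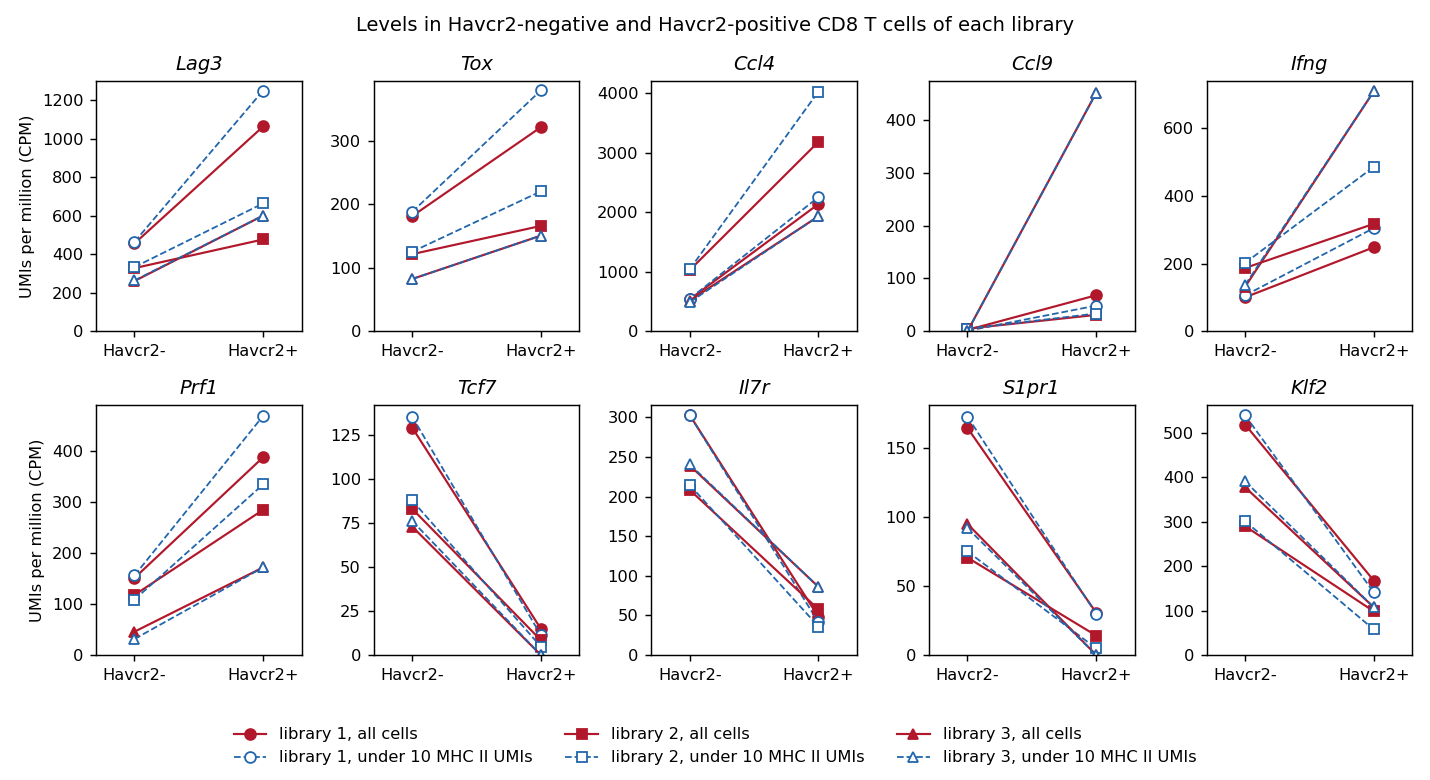
Levels of 10 genes (y axis, CPM) in Havcr2-negative and Havcr2-positive CD8 T cells (x axis), with 1 line per library, filled red for all cells and open blue dashed without the cells that had 10 or more MHC class II UMIs. Tcf7, Il7r, S1pr1 and Klf2 were lower, and Lag3, Tox, Ccl4, Ccl9, Ifng and Prf1 higher, in the Havcr2-positive cells of each library in both sets of cells.

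Inhibitory receptors other than Pdcd1 were higher in part. Of 11 tested, 5 were higher (Lag3, Ctla4, Entpd1, Cd101 and Lilrb4a) and 1, Cd96, was lower, with a list median of 0.54. Lag3, whose product binds MHC class II, was at 1065, 477 and 601 CPM against 456, 328 and 261 CPM (log2 difference 0.91 ± 0.17, edgeR adjusted p = 2.76e-06). Ctla4, which competes with CD28 for its ligands, was at 927, 648 and 752 CPM against 586, 554 and 341 CPM (0.54 ± 0.17). Both were higher in each library, although the gap of Ctla4 in library 2 was small. Entpd1, the gene of the ectonucleotidase CD39, was at 301, 138 and 43.0 CPM against 91.5, 50.05 and 54.8 CPM, with a log2 difference of 1.52 ± 0.18 (edgeR adjusted p = 4.14e-15). It was higher in libraries 1 and 2 and not in library 3. Lilrb4a, an inhibitory immunoglobulin-like receptor, was at 143, 77.2 and 172 CPM against 51.7, 62.7 and 60.2 CPM (0.99 ± 0.19).

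Tigit and Cd160 did not pass the test in all cells. Tigit was at 684, 375 and 687 CPM against 502, 336 and 573 CPM, a log2 difference of 0.25 ± 0.16 (edgeR adjusted p = 0.51). It was higher, by 0.46 ± 0.14, without the MHC class II-high cells (edgeR adjusted p = 0.014), and 6 of 10 receptors were then higher and none lower, with a median of 0.56. Cd160 was at 48.1, 46.3 and 43.0 CPM against 50.5, 61.7 and 20.1 CPM (-0.17 ± 0.22), in an order that differed between libraries. Without library 1, 1 of 8 receptors tested was higher, Entpd1. Lag3, Ctla4 and Lilrb4a then differed by 0.71, 0.51 and 0.56 and did not pass the test. Without library 2, 4 were higher and Ctla4, at 0.73, again did not pass, and without library 3, 6 were higher and 2 lower. DESeq2, another test on the same sums, called only Lag3 of the 11 receptors. None of them passed with no replicate block, so the calls of Ctla4, Entpd1, Cd101 and Lilrb4a depended on the test used.

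The receptors were also counted within single cells at equal depth. Each cell was thinned to 1000 UMIs and scored for the number of Pdcd1, Lag3, Tigit, Ctla4, Cd160 and Entpd1 with a UMI. In the Havcr2-positive cells, 103 of 187 in library 1 (55.1%, exact 95% interval 47.7 to 62.3%), 23 of 98 in library 2 (23.5%, 15.5 to 33.1%) and 3 of 13 in library 3 (23.1%, 5.04 to 53.8%) had 3 or more. In the Havcr2-negative cells the shares were 23.7%, 14.7% and 13.1%. The mean number was 2.64, 1.79 and 2.00 against 1.58, 1.22 and 1.21, or 2.14 ± 0.44 against 1.34 ± 0.21 (SD, n = 3 libraries). The Havcr2-positive mean was higher in 3 of 3 libraries, but 3 paired values cannot give a two-sided p below 0.25 in an exact permutation test. The mean was 2.82, 2.00 and 2.00 without the MHC class II-high cells. Thinning left out 24, 0 and 0 Havcr2-positive and 78, 12 and 18 Havcr2-negative cells with fewer UMIs, and without thinning the means were 3.72 and 2.41.

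**Figure D2:**
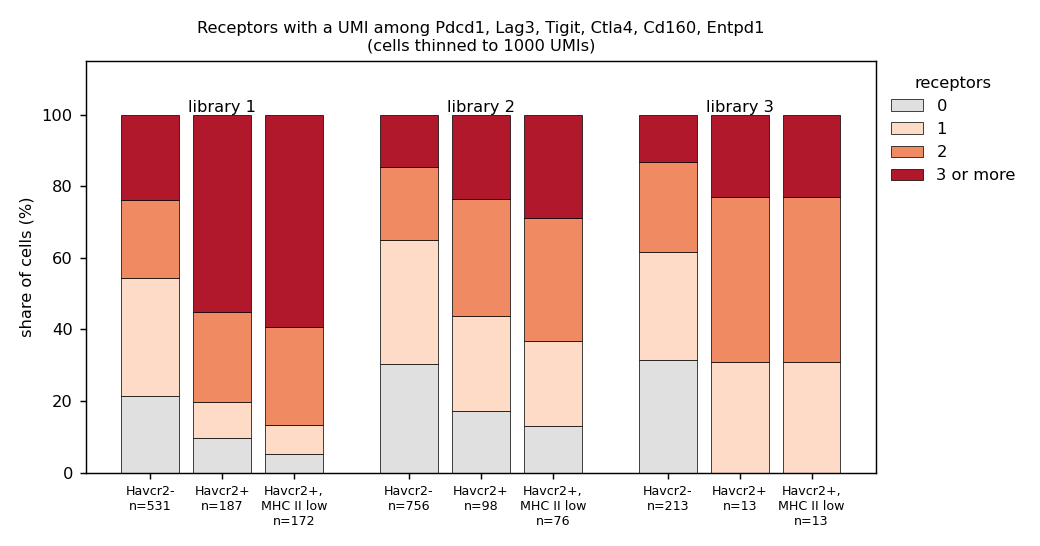
Share of cells (y axis, %) with UMIs of 0, 1, 2 or 3 or more of 6 inhibitory receptors after thinning to 1000 UMIs, for Havcr2-negative cells, Havcr2-positive cells and Havcr2-positive cells without the MHC class II-high ones in each library (n under each bar). The darkest segment, 3 or more receptors, was 55.1% of Havcr2-positive cells in library 1 and 23.5% and 23.1% in libraries 2 and 3, above the Havcr2-negative share in each library.

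By single receptors at this depth, Lag3 was found in 47.1% ± 13.0 of Havcr2-positive cells against 23.4% ± 6.09 of Havcr2-negative cells and 1.27% of B cells, and Ctla4 in 50.8% ± 5.97 against 32.1% ± 8.91 and 2.98%. Pdcd1 was found in 50.5% ± 11.4 against 33.2% ± 1.19 and 0.754%. For Tigit the shares were 44.9% ± 14.2 against 35.5% ± 10.3. These SDs are between libraries and do not measure the spread of the difference within a library. Cd160 was found in few cells of either class, 4.16% ± 3.72 against 3.43% ± 2.19.

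Transcription factors of the exhausted and effector state were higher as a minority of their list. Of 18 tested, 7 were higher (Tox, Tox2, Nr4a2, Prdm1, Id2, Batf and Zeb2) and 1, Ikzf2, was lower, with a list median of 0.42. Tox, the factor that programmes exhaustion, was at 321, 166 and 150 CPM against 181, 121 and 82.1 CPM (log2 difference 0.67 ± 0.16, edgeR adjusted p = 0.00136). Id2, which opposes E proteins in effector cells, was at 684, 401 and 344 CPM against 287, 223 and 162 CPM (1.04 ± 0.16, edgeR adjusted p = 9.86e-09). The classes did not overlap for Id2, while the Tox level of the Havcr2-positive cells in library 3 lay below that of the Havcr2-negative cells in library 1. Prdm1 (Blimp-1) was at 81.3, 57.5 and 0 CPM against 32.3, 43.0 and 12.8 CPM (0.91 ± 0.22) and Batf, an AP-1 factor downstream of the antigen receptor, differed by 0.61 ± 0.16. Eomes and Tbx21 (T-bet), a pair of T-box factors whose balance shifts in exhaustion, differed by 0.34 ± 0.19 and 0.00 ± 0.19 and did not pass the test. In the set without MHC class II-high cells, 10 of 18 were higher, Eomes, Maf and Rbpj among them, and 1 lower, with a median of 0.52.

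Most of these calls needed both larger libraries. Without library 1 only Id2 was higher of the 18 factors, without library 2 Id2 and Prdm1, and without library 3 the 7 genes higher and 1 lower were again Tox, Tox2, Nr4a2, Prdm1, Id2, Batf, Zeb2 and Ikzf2. Tox differed by 0.51 without library 1 and by 0.78 without library 2, and Batf by 0.63 and 0.80. DESeq2 called only Id2 of the 18 factors, and none passed with no replicate block. With all cells that used the receptor gene Trbv19 left out, an alternative chosen after the data were seen, Id2 and Zeb2 were higher and Tox differed by 0.53, no longer past the test. In a comparison with depth-matched Havcr2-negative cells and without MHC class II-high cells, 7 of 18 factors were higher, 5 of 8 inhibitory receptors were higher and 6 of 10 stem-like genes were lower.

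Chemokines gave the largest increases. Of 13 cytokine and chemokine genes tested besides Ccl3, 5 were higher (Ccl4, Ccl9, Ifng, Tnf and Csf1) and 2 were lower (Xcl1 and Spp1), with a list median of 0.34. Ccl4, like Ccl3 a chemokine of activated T cells, was at 2140, 3186 and 1933 CPM against 537, 1030 and 517 CPM (log2 difference 1.76 ± 0.19, edgeR adjusted p = 5.29e-17). Ccl9 was at 68.0, 30.9 and 451 CPM against 2.37, 4.93 and 0 CPM, the largest difference named here at 4.39 ± 0.36 (edgeR adjusted p = 1.42e-30). It was a feature of few cells: 17 of 211, 8 of 98 and 2 of 13 Havcr2-positive cells had a Ccl9 UMI, against 4 of 609, 8 of 768 and 0 of 231 Havcr2-negative cells. Ccl6, a neighbour of Ccl9, was at 69.7, 46.3 and 301 CPM against 16.2, 11.3 and 5.48 CPM (2.46 ± 0.27). The high levels in library 3 rest on 13 cells. Without library 3, Ccl9 differed by 3.70 and Ccl6 by 2.08, and without the MHC class II-high cells by 4.71 ± 0.41 and 3.40 ± 0.41. In this second set Ccl6 was at 19.6, 64.6 and 301 CPM against 7.51, 3.12 and 0 CPM. Its gap thus narrowed in library 1, and the larger difference came from libraries 2 and 3.

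Ccl3, Ccl4, Ccl6 and Ccl9 lie in 1 chemokine cluster on chromosome 11 (GRCm38), at chr11:83647844-83649355 (Ccl3, minus strand), chr11:83662584-83664683 (Ccl4, plus strand), chr11:83587882-83593087 (Ccl6, minus strand) and chr11:83572919-83578636 (Ccl9, minus strand). Ccl5 lies at chr11:83525778-83530518 and was at 20566, 32186 and 67719 CPM against 14039, 29175 and 30932 CPM, a log2 difference of 0.51 ± 0.31 that did not pass the test (edgeR adjusted p = 0.46). The 250 bases before the RefSeq start of Ccl3, Ccl6 and Ccl9 are shown because these neighbours were high in the same class of cells. They are at chr11:83649379-83649628, chr11:83593088-83593337 and chr11:83578637-83578886, all on the minus strand, and are printed 5′ to 3′ along the gene. The promoter of Havcr2 itself, at chr11:46454681-46454930 on the plus strand, is shown for comparison. Capitals mark each match, on either strand, of TGANTCA, the core letters of AP-1 sites, and of GGAAA, the core letters of NFAT sites.
Ccl3: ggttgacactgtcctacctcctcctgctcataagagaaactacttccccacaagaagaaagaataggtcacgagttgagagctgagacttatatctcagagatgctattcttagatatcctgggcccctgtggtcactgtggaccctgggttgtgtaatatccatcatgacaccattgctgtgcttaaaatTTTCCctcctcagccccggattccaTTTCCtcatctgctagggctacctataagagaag
Ccl6: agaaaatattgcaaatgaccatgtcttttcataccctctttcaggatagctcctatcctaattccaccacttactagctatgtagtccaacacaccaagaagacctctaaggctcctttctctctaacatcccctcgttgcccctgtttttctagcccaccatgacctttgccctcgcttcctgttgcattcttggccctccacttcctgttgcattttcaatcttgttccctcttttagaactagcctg
Ccl9: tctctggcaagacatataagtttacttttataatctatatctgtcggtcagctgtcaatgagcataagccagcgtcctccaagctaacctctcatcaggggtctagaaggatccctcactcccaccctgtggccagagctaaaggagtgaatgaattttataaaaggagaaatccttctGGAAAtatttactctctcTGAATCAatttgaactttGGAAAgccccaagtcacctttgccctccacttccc
Havcr2: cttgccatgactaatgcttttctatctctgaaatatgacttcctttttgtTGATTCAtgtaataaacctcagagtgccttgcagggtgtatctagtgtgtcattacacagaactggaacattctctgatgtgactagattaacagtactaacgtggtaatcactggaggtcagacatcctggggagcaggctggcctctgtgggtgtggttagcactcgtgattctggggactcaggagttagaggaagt
TGANTCA occurred once in the Ccl9 and the Havcr2 window and in neither of the others, and 2217 of 32851 promoters of this length (6.75%) held it. GGAAA occurred 2 times in the Ccl3 and in the Ccl9 window and not in the other windows, and 55.6% of promoters held it. A match describes letters and is not a site of binding.

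Among cytokines, Ifng, the gene of interferon gamma, was at 248, 317 and 709 CPM against 100, 187 and 131 CPM (log2 difference 1.24 ± 0.16, edgeR adjusted p = 9.24e-13), without overlap between the classes. Csf1, a growth factor of macrophages, was at 102, 26.7 and 64.4 CPM against 22.9, 15.2 and 10.95 CPM (1.75 ± 0.26), and by 1.02 without library 1, which did not pass. Tnf was at 97.0, 19.7 and 43.0 CPM against 21.3, 32.1 and 14.6 CPM (1.16 ± 0.25). It was lower in library 2, differed by -0.48 without library 1, and did not pass the test without the MHC class II-high cells (0.62 ± 0.30, edgeR adjusted p = 0.249). Xcl1, a chemokine for cross-presenting dendritic cells, was at 379, 25.3 and 0 CPM against 249, 284 and 184 CPM (-0.85 ± 0.19) and was higher in library 1, lower in the others. Without library 2 its difference was 0.11. Spp1 (osteopontin) was at 17.4, 21.1 and 0 CPM against 4.73, 120 and 14.6 CPM (-1.12 ± 0.29), lower in library 2 and higher in library 1. Its difference was 1.49 without library 2 and 0.41 without cells holding Trdc, Ncr1 or Klrb1c UMIs, and passed the test in 7 of 14 alternatives. Those 14 included leaving out cells under 300 UMIs, which removed no cell. Of 10 genes of the list tested without the MHC class II-high cells, 5 were higher (Ccl4, Ccl5, Ccl9, Ifng and Csf1) and none lower, with a median of 0.67. Leaving out library 1, 2 or 3 left 3, 5 and 6 genes of the list higher.

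**Figure D3:**
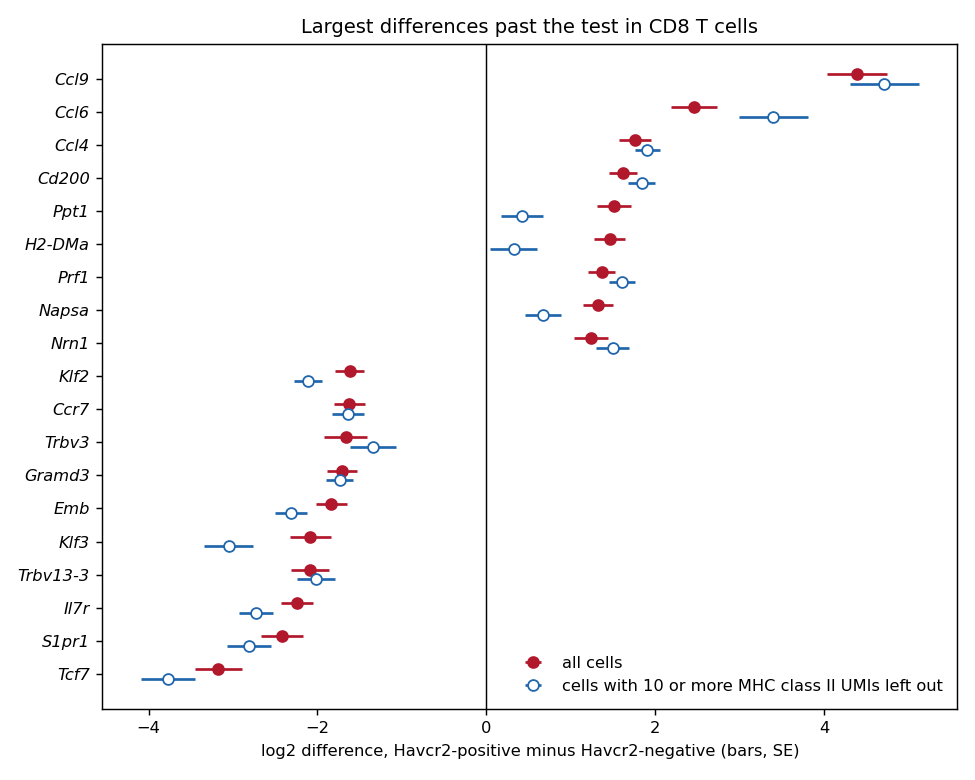
Log2 difference (x axis, Havcr2-positive minus Havcr2-negative CD8 T cells, bars are SE) of the 19 genes with the largest differences past the test, the same sign in each library and a mean of at least 50 CPM, without the label markers, for all cells (red) and without the MHC class II-high cells (blue). Ccl9 stands farthest to the right at 4.39 and Tcf7 farthest to the left at -3.18, while H2-DMa and Ppt1 move from 1.46 and 1.52 to 0.32 and 0.42 in the second set.

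Cytotoxic genes differed from each other. Of 13 tested, 2 were higher (Prf1 and Ctsb) and 1, Ctsw, was lower, with a list median of -0.14. Prf1, the pore-forming protein perforin, was at 388, 285 and 172 CPM against 151, 118 and 45.6 CPM (log2 difference 1.36 ± 0.16, edgeR adjusted p = 1.97e-14) and did not overlap between the classes. Ctsw, a cathepsin of cytotoxic cells, was at 449, 305 and 537 CPM against 943, 875 and 637 CPM (-1.14 ± 0.18). Granzymes did not pass the test: Gzmb was at 528, 597 and 1267 CPM against 366, 708 and 668 CPM (0.27 ± 0.16), Gzmk at 605, 383 and 515 CPM against 640, 464 and 622 CPM (-0.23 ± 0.16), and Gzma differed by -0.16 ± 0.16. Gzmb was lower in library 2 and higher in the others. Of the 13 genes, 4 were higher without the MHC class II-high cells (Gzmb, Prf1, Nkg7 and Ctsb) and 2 lower (Ctsw and Lamp1), and Gzmb then differed by 0.43 ± 0.14 (edgeR adjusted p = 0.0281).

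Of 14 trafficking and residency genes tested, Cxcr6 was higher, 6 were lower and 7 did not pass the test (lower were Cxcr3, Itgae, Itga1, Itgb1, Itgb7 and Cd69), with a list median of -0.33 that was -0.47 without the MHC class II-high cells. Cxcr6, the receptor for CXCL16 on tissue T cells, was at 1327, 604 and 945 CPM against 618, 396 and 228 CPM (log2 difference 1.06 ± 0.17, edgeR adjusted p = 4.93e-08). Cxcr3, the receptor for interferon-induced chemokines, was at 82.1, 51.9 and 43.0 CPM against 228, 133 and 85.8 CPM (-1.40 ± 0.19, edgeR adjusted p = 6.54e-11). Itgae, the gene of the CD103 integrin chain, was at 55.6, 68.8 and 0 CPM against 122, 113 and 23.7 CPM (-0.93 ± 0.20), and Cd69, which retains T cells in tissue, at 211, 67.4 and 43.0 CPM against 339, 150 and 84.0 CPM (-0.85 ± 0.18). Cxcr6 had the same direction in all 3 libraries. Cxcr3 and Cd69 did too, but their 43.0 CPM in library 3 lies under the 64.4 CPM that a count of 0 allows there. Itgae had the same direction in libraries 1 and 2, since its 0 in library 3 lies under what 13 cells can show. Itgae (-0.75) did not pass without library 1, nor Cd69 (-0.73) without library 2. Cxcr6 thus stood against the integrins and Cd69, which are listed with it as residency genes.

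Genes of the response to the antigen receptor were split. Tnfrsf9 (4-1BB), a costimulatory receptor of recently stimulated cells, was at 310, 247 and 64.4 CPM against 127, 114 and 56.6 CPM (log2 difference 1.17 ± 0.17, edgeR adjusted p = 3.08e-10), with little gap in library 3. Cd200, an immunoglobulin-family ligand, was at 293, 189 and 387 CPM against 89.5, 81.1 and 56.6 CPM (1.62 ± 0.17). Of 18 genes of the response list, 2 were higher (Tnfrsf9 and Dusp4) and 2 lower (Cd28 and Dusp2), with a list median of 0.12. Nr4a1 was at 512, 354 and 322 CPM against 514, 331 and 385 CPM. Natural killer receptors of T cells had 4 of 11 higher (Klrc1, Klrd1, Klre1 and Tyrobp) and 3 lower (Klra5, Cd226 and Crtam). Klrc1 and Klrd1, which pair as the inhibitory receptor NKG2A and CD94, differed by 0.61 ± 0.16 each and did not pass without library 1 (0.71 and 0.56) or library 2 (0.63 and 0.67). Tyrobp, a signalling adaptor that myeloid cells also express, was at 391, 630 and 0 CPM against 413, 227 and 80.3 CPM and turned from 0.60 ± 0.17 to -3.84 ± 0.27 without the MHC class II-high cells.

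Over all genes tested, 3.5% were higher and 2.8% lower, and 3.16% and 4.32% without the MHC class II-high cells. Lists below with only 1 or 2 genes called are not read as results about their pathways. Interleukin receptor genes had 2 of 13 higher (Il2rb and Il10ra) and 3 lower (Il18r1, Il18rap and Ifngr1). Of 13 glycolysis genes 2 were higher (Tpi1 and Pkm), of 19 mitochondrial respiration genes 1 (Cycs), and of 15 cell cycle genes outside the gate none passed in edgeR or DESeq2, with 1 at an unadjusted edgeR p under 0.05. G protein signalling genes other than Rgs16 had 1 of 12 lower, Gpr183, a receptor for oxysterols, at 94.5, 68.8 and 172 CPM against 215, 136 and 173 CPM. Among 18 interferon-stimulated genes none was higher and 2 were lower, Ifit1 and Ifit3, and without the MHC class II-high cells 8 were lower, with a median of -0.46 against -0.20 in all cells. Dissociation response genes had 3 of 12 higher (Jun, Atf3 and Zfp36) and 1 lower (Dnajb1), but none of 11 higher and 4 lower without the MHC class II-high cells. Of 13 macrophage and monocyte markers tested 11 were higher, with a median of 1.46, and without the MHC class II-high cells 1 of 7, Lgals3, was higher and 1, Lyz2, lower. Among the most different genes, Ppt1, H2-DMa and Napsa followed the same pattern: their log2 differences of 1.52, 1.46 and 1.32 became 0.42, 0.32 and 0.67, of which only Napsa passed the test. Of dendritic cell markers 2 of 5 were higher (Siglech and Clec10a) and none was tested without the MHC class II-high cells. Of the other cell type lists, Igkc, Trdc, Txk and Mbp were lower and Areg was higher.

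The remaining genes named by their size were less well known in these cells. Nrn1, a neuritin gene that activated T cells also transcribe, was at 108, 107 and 107 CPM against 48.9, 45.5 and 25.6 CPM (log2 difference 1.24 ± 0.20). Emb, the immunoglobulin-family protein embigin, was at 82.1, 66.0 and 150 CPM against 321, 240 and 281 CPM (-1.83 ± 0.18), and Gramd3 at 131, 74.4 and 236 CPM against 454, 245 and 540 CPM (-1.71 ± 0.17). The levels of Nrn1 in the Havcr2-positive cells were nearly the same in all libraries, and neither Emb nor Gramd3 overlapped between the classes. The receptor genes Trbv13-3 and Trbv3 were lower, at 29.0, 32.3 and 21.5 CPM against 161, 98.7 and 65.7 CPM for Trbv13-3 and at 34.8, 0 and 64.4 CPM against 62.3, 75.1 and 96.7 CPM for Trbv3. Serpine2, a protease inhibitor chosen after its values were seen, was at 0.829, 67.4 and 129 CPM against 0.789, 4.23 and 12.8 CPM, so it was high in libraries 2 and 3 and near 0 in both classes of library 1.

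Levels also followed the number of Havcr2 UMIs, which is a description because the rule used that number. In library 1, Ccl3 was at 149, 591, 773 and 1274 CPM in cells with 0, 1, 2 and 3 or more Havcr2 UMIs, and Entpd1 at 91.5, 180, 310 and 456 CPM. Pdcd1 was at 560, 798, 1100 and 1264 CPM, and Tcf7 at 129, 26.5, 14.2 and 0 CPM. In library 2 Ccl3 was at 245, 1004, 943 and 1511 CPM and Tox at 121, 138, 142 and 208 CPM. Pdcd1 there was at 477, 465, 576 and 485 CPM in all cells and at 489, 667, 712 and 730 CPM without the MHC class II-high cells. The step between the cells just outside the rule and those just inside it, with 1 UMI, was therefore the largest for Ccl3 in library 2 and for Tcf7 in library 1, while Pdcd1 and Entpd1 in library 1 were higher again with each further class.

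**Figure D4:**
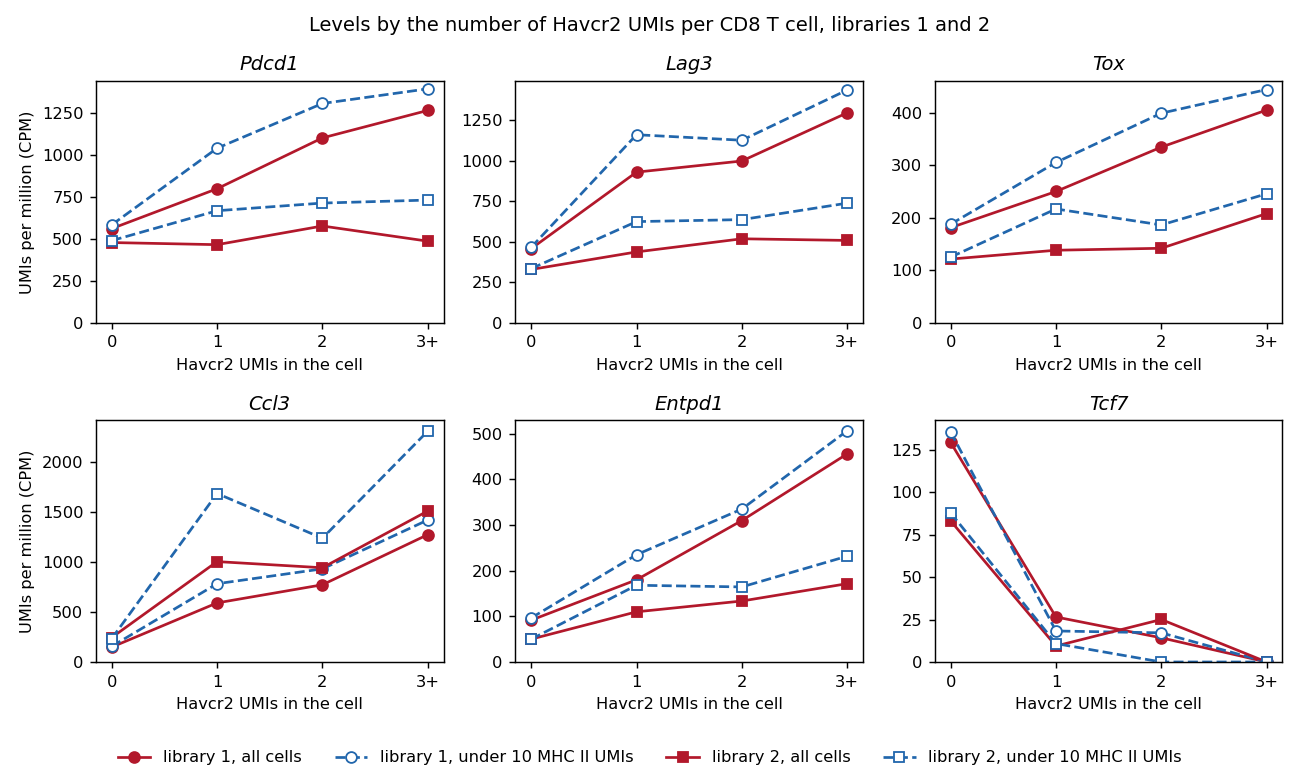
Levels of 6 genes (y axis, CPM) in CD8 T cells with 0, 1, 2 and 3 or more Havcr2 UMIs (x axis) in libraries 1 (circles) and 2 (squares), for all cells (red, solid) and without the MHC class II-high cells (blue, dashed). Tcf7 was highest at 0 Havcr2 UMIs in both libraries, while Pdcd1 in library 2 was flat in all cells and between 667 and 730 CPM in Havcr2-positive cells of the second set. Library 3, with 13 Havcr2-positive cells, is not drawn.

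The second comparison was with a part of the other CD8 T cells, the 902 Havcr2-negative cells that had a UMI of Gzmk, a granzyme of effector memory and exhausted precursor cells (368, 411 and 123 in libraries 1, 2 and 3). These cells are part of the Havcr2-negative class, so both comparisons share samples and their values are given side by side. Of 7323 genes, 265 (3.62%) were higher and 209 (2.85%) lower in the Havcr2-positive cells (6.47% in all), and 180 of 6421 (2.8%) and 250 (3.89%) without the MHC class II-high cells (6.7% in all). Without library 1, 2 or 3, the total past the test was 170, 110 and 767. The same chemokines led, with log2 differences of 4.33 ± 0.38 for Ccl9, 2.31 ± 0.28 for Ccl6 and 1.48 ± 0.18 for Ccl4. Tnfrsf9 differed by 1.48 ± 0.17 (310, 247 and 64.4 CPM against 95.4, 101 and 32.6 CPM) and Cd200 by 1.66 ± 0.17. Areg, a growth factor of repair-associated T cells, was at 43.1, 174 and 21.5 CPM against 28.9, 39.6 and 9.78 CPM (1.49 ± 0.23). It was 0.56 without library 2 and did not pass.

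Against the Gzmk-positive cells, 6 of 11 inhibitory receptors were higher (Lag3, Ctla4, Entpd1, Cd101, Btla and Lilrb4a) and none lower, with a list median of 0.92 beside -0.02 over all genes. Of 13 stem-like and resting genes 8 were lower and Id3 higher (median -1.05), and of 11 tested without the MHC class II-high cells 9 were lower. Tcf7 was at 117, 91.1 and 61.9 CPM in the Gzmk-positive cells, a log2 difference of -3.13 ± 0.29 (edgeR adjusted p = 5.78e-25), and Il7r at 247, 161 and 153 CPM (-1.93 ± 0.20). The Gzmk-positive cells, a part of the Havcr2-negative class, thus had Tcf7 levels near those of the whole class. Their Il7r level was lower in each library than the 303, 208 and 239 CPM of all Havcr2-negative cells. Transcription factors had 4 of 18 higher (Id2, Maf, Zeb2 and Rbpj), and 9 of 18 without the MHC class II-high cells, Tox among them. Tox was at 204, 146 and 91.3 CPM in the Gzmk-positive cells and differed by 0.45 ± 0.16 (edgeR adjusted p = 0.076) in all cells and by 0.67 ± 0.15 without the MHC class II-high ones. Of cytokines and chemokines 5 of 12 were higher and Spp1 was lower, and of cytotoxic genes Prf1 and Ctsb were higher and Gzma, Ctsw and Serpinb9 lower.

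At 1000 UMIs per cell the Gzmk-positive cells had 1.64, 1.22 and 1.26 of the 6 inhibitory receptors on average, near the 1.58, 1.22 and 1.21 of all Havcr2-negative cells and below the 2.64, 1.79 and 2.00 of the Havcr2-positive cells. Lower genes named by size were Trbv13-3, Klf3, Gramd3, Il7r, Emb, Trbv16, Cxcr3, Klk8, Gm26740 and Ripor2, with log2 differences between -2.49 for Trbv13-3 and -1.39 for Ripor2. Higher ones also included H2-DMa, Ppt1 and Napsa at 1.72, 1.69 and 1.57, which were 0.52, 0.54 and 1.05 without the MHC class II-high cells. Interferon-stimulated genes had 3 of 18 lower in all cells (Ifit1, Ifit3 and Rtp4) and 10 of 18 without the MHC class II-high cells.

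The third comparison asked how Havcr2-positive cells of the CD8 and CD4 lineages differed from each other, and used 104 Havcr2-positive CD4 T cells without Foxp3 UMIs, Foxp3 being the factor of regulatory T cells. Libraries 1 and 2 held 52 and 50 of them, and library 3 held 2 and was not used, so 2 libraries enter. Of 6147 genes, 89 (1.45%) were higher and 153 (2.49%) lower in the CD8 cells, 3.94% in all. Here the MHC class II-high cells weighed most: macrophage and monocyte markers summed to 37538 and 29771 CPM in the CD4 cells, and to 1050 and 2189 CPM once those cells were left out and 37 and 39 CD4 cells remained. Then 74 of 4207 genes (1.76%) were higher and 112 (2.66%) lower, 4.42% in all.

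Prf1 was at 388 and 285 CPM in the CD8 cells and 20.8 and 27.5 CPM in the CD4 cells (log2 difference 3.85 ± 0.31, edgeR adjusted p = 2.88e-06). Klrc1 was at 789 and 458 CPM against 35.7 and 44.6 CPM (3.98, edgeR adjusted p = 5.98e-07), and Eomes at 156 and 70.2 CPM against 29.7 and 10.3 CPM (2.53 ± 0.38). Of cytotoxic genes 5 of 14 were higher in the CD8 cells and none lower, and without the MHC class II-high cells 3 of 13 were higher (Gzmk, Prf1 and Nkg7) and 2 lower (Srgn and Ctsb). Of NK receptor genes 5 of 9 were higher and Fcer1g lower, and in the second set 5 of 5 were higher. On the CD4 side, Cd40lg, the ligand by which helper cells activate CD40-bearing cells, was at 4.98 and 5.61 CPM in the CD8 cells against 143 and 168 CPM (-4.77 ± 0.37). Il21, a cytokine of helper T cells, was at 4.15 and 8.42 CPM against 59.4 and 185 CPM (-4.10 ± 0.40), and Il10 at 11.6 and 23.9 CPM against 119 and 99.5 CPM (-2.67 ± 0.37). Without the MHC class II-high cells, Prf1, Klrc1 and Eomes differed by 3.08, 4.02 and 2.02. Cd40lg, Il21 and Il10 then differed by -5.56, -4.41 and -3.64, and all of these genes passed the test. Their levels in the CD4 cells were higher in this set, with Prf1 at 46.1 and 53.1 CPM and Il10 at 368 and 153 CPM. Other named genes that were higher were Klre1, Trgv2, Trav3-3, Gm19585, Ccl5 and Tnfrsf9 (log2 differences between 2.17 and 3.03, and between 1.65 and 3.51 in the second set, where Gm19585 at 1.98 did not pass with an edgeR adjusted p of 0.0963), and those that were lower were Ccl2, Tnfsf8, Spp1, Socs2, Trav9-1, Spry1 and Ccr8 (between -4.40 and -2.62, and without Ccl2 between -7.24 and -2.98 in the second set). Ccl2 and Spp1 are also made by macrophages, and Ccl2 was not tested without the MHC class II-high cells.

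Inhibitory receptors changed place with the cells used. In all cells Cd160 and Cd101 were higher in the CD8 cells and none of 11 was lower. Once the MHC class II-high cells were left out, none of 10 was higher and Lag3, Tigit and Ctla4 were lower, with log2 differences of -0.77 ± 0.13, -0.69 ± 0.15 and -1.09 ± 0.19. Lag3 was then at 1252 and 665 CPM in the CD8 cells against 2404 and 1174 CPM in the CD4 cells. Its difference in all cells was -0.05 ± 0.18 (edgeR adjusted p = 0.956). Cytokine genes shifted likewise, from 3 of 14 higher and 3 lower to 1 higher, Ccl5, and 8 lower, among them Ifng (-1.14 ± 0.19) and Csf1 (-1.24 ± 0.27). Neither Ccl3, which is a label marker at 858 and 1189 CPM against 553 and 772 CPM in all cells and 1052 and 1801 CPM against 1649 and 1220 CPM in the second set and compared without a test, nor Ccl4 (0.70 ± 0.14 and -0.08 ± 0.24) kept its order in every library.

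T cell receptor V genes differed between the classes, and by library. Each cell was assigned the Trbv gene with most UMIs. In library 1, 151 of 194 Havcr2-positive cells with a Trbv UMI used Trbv19 (77.8%, exact 95% interval 71.3 to 83.5%), against 145 of 494 Havcr2-negative cells (29.4%, 25.4 to 33.6%). In library 2 the most used gene was Trbv5, in 21 of 74 cells (28.4%, 18.5 to 40.1%) against 36 of 586 (6.14%, 4.34 to 8.40%), and in library 3 Trbv13-2, in 5 of 13 cells (38.5%, 13.9 to 68.4%) against 28 of 188 (14.9%, 10.1 to 20.8%). The intervals did not overlap between the classes in libraries 1 and 2 and overlapped in library 3. Cells of 1 expanded clone are not independent, so these intervals cover counting error only, and paired receptor sequences were not used here. Trbv19 lies at chr6:41178375-41179048 and Trbv5 at chr6:41062332-41062803 (GRCm38, both plus strand).

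**Figure D5:**
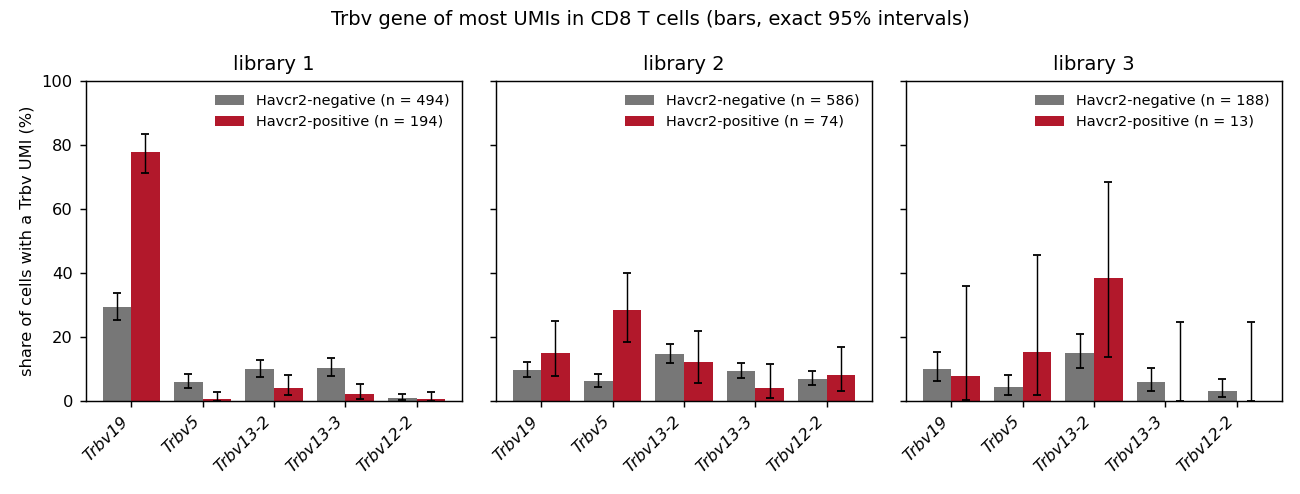
Share of CD8 T cells with a Trbv UMI (y axis, %) by their Trbv gene of most UMIs (x axis), for Havcr2-negative (grey) and Havcr2-positive (red) cells of each library, with exact 95% binomial intervals. Trbv19 stands at 77.8% of Havcr2-positive cells in library 1, Trbv5 at 28.4% in library 2 and Trbv13-2 at 38.5% of 13 cells in library 3.

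Read the other way, 151 of 296 Trbv19 CD8 T cells of library 1 were Havcr2-positive (51.0%, 45.2 to 56.8%), against 43 of 392 that used another Trbv gene (10.97%, 8.05 to 14.5%). In library 2 the shares were 11 of 67 (16.4%) and 63 of 593 (10.6%), and in library 3 1 of 20 and 12 of 181. Trav use went with Trbv use. Of 109 Havcr2-positive Trbv19 cells of library 1 with a Trav UMI, 66 used Trav3-1 (60.6%) and 26 used Trav12-2 (23.9%), and of 110 Havcr2-negative Trbv19 cells 49 and 27 did. Of 21 Havcr2-positive Trbv5 cells of library 2, 19 used Trav3-3 (90.5%, 69.6 to 98.8%), against 13 of 30 Havcr2-negative ones. Several Trav genes have near-identical copies, between which reads can be split, so single Trav names are uncertain.

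Levels in library 1 differed by both Havcr2 and Trbv19. Without the MHC class II-high cells, Pdcd1 was at 1359 CPM in the 148 Havcr2-positive Trbv19 cells and 650 CPM in the 37 that used another Trbv gene, and at 922 and 428 CPM in the Havcr2-negative cells of the same kinds. Tox followed the same order, at 410, 217, 337 and 123 CPM, and Ccl3 was at 1213, 378, 381 and 53.3 CPM. Havcr2-negative Trbv19 cells were thus above Havcr2-positive cells of other Trbv genes for Pdcd1, Tox and, narrowly, Ccl3. Tcf7 was at 7.69 and 27.8 CPM in the Havcr2-positive and at 81.5 and 174 CPM in the Havcr2-negative cells, and was below the Havcr2-negative levels in both kinds of Havcr2-positive cell. With the Trbv19 cells of every library left out, 213 genes passed the test against Havcr2-negative cells, in place of 466, with 8 of 13 stem-like genes, Tcf7 and Il7r included, still lower and Lag3, Entpd1 and Lilrb4a higher.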

How the data were processed

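Single-cell RNA-seq libraries of CD45+ sciatic nerve cells were analysed from the filtered count matrices that the authors deposited. These hold UMI counts of each gene in each cell, not normalized, made by the authors with Cell Ranger (5.0.1 for library 1 and 6.1.2 for libraries 2 and 3, per the file headers) on mm10. Library 1 came without a gene list and took the row order of the others (32285 rows; Spearman correlation of gene totals 0.95 and 0.929, against 0.362 and 0.321 with rows shifted by 1). Cells with more than 5000 genes or 20% mitochondrial UMIs were left out, as in the study, and no cell had under 300 UMIs. Leaving out cells under 300 UMIs was run as a further alternative and therefore changed nothing. The members and gene lists were chosen with earlier results of these data known.

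UMIs were summed per library and class of at least 10 cells and tested with edgeR 4.0.16 (R 4.3.3; TMM, filterByExpr, quasi-likelihood F-test, library as a block). The block follows from the design, since both classes come from the same mice of a library. The SE of a log2 difference was its absolute value divided by the square root of the test's F statistic. It is not a spread between libraries. On simulated counts of 7117 genes the first comparison recovered 98.9% of genes changed by a log2 difference of 2 and 74.5% of those changed by 1, with 4 false calls. These counts were drawn from the fitted model, with the same class effect in every library. The false calls therefore do not measure error in the real data. At a log2 difference of 1 the recovery was 59.6% against Gzmk-positive cells (7011 genes) and 31.9% against CD4 cells (5727 genes). In the simulated counts, smaller differences from CD4 cells were thus often missed. How many were missed in the real data was not measured. Other values used Python 3.11.15 with scipy 1.17.1. Doublets were not removed in the main analysis, and Scrublet scores (scanpy 1.11.5) gave an alternative. Named genes were the members of 24 lists (326 symbols, of which Znf683, Aldoa and Mx1 had no row) and, per comparison, the 10 largest differences in each direction that passed the test with the same sign in each library and a mean of at least 50 CPM. The test ran over all genes, but no test result is given for label markers and gate genes. Gate genes were left out of the counts of genes past the test, while label markers outside the gate stayed in these totals. List counts leave out both. Alternatives were DESeq2 1.42.0, RLE scaling, no filter on low counts, leaving out each library, depth matching, gating on thinned cells, a Havcr2 minimum of 2 UMIs, and leaving out cells with myeloid, γδ T or NK cell UMIs, high Scrublet scores, 10 or more MHC class II UMIs or Trbv19. Promoter sequences were taken from RefSeq (GRCm38.p6), which held no entry used here for Ccl4, and gene positions from the GRCm38 annotation. A few listed genes are not reported here by name and remain in the list counts.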

Additional observations from a re-analysis of the deposited data

How the results depend on the processing

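The number of genes past the test depended on the processing more than the leading genes did. With no replicate block, that is with libraries not paired, 10, 7 and 13 genes passed in the comparisons with Havcr2-negative CD8, Gzmk-positive CD8 and Havcr2-positive CD4 T cells, in place of 466, 474 and 242. DESeq2 gave 89, 94 and 42. Against Havcr2-negative and Gzmk-positive cells, depth matching gave 185 and 177, gating on thinned cells 16 and 20 (2 libraries), leaving out cells with myeloid UMIs 269 and 186, leaving out MHC class II-high cells with depth matching 154 and 243, leaving out Trbv19 cells 213 and 228, and leaving out 1 library 159 to 689 and 110 to 767. Against CD4 cells, no filter on low counts gave 422, leaving out cells with myeloid UMIs 47, leaving out cells with Trdc, Ncr1 or Klrb1c UMIs 455, and leaving out Trbv19 cells 39. There, depth matching left the cells as they were (52 and 50 CD4 cells against 211 and 98), thinned gating left 1 library with at least 10 CD4 cells, and leaving out 1 of 2 libraries left no replicate, so none of these gave a value. The cause of these changes was not tested. The mean number of inhibitory receptors per cell differed by 0.805 at 1000 UMIs, 1.31 without thinning, 0.479 at 500 UMIs and 0.677 to 0.924 without 1 library.

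Of 1286 checks of 77 named genes against Havcr2-negative cells, 885 kept direction and side of the threshold, 379 lost the test and 22 reversed. Of the 885, 77 came from leaving out cells under 300 UMIs, which removed no cell and could not change a result. Gating on thinned cells gave H2-DMa -0.37, Cd96 0.14, Tox2 -0.17, Tpi1 -0.57, Cycs -0.55, Ifngr1 0.056, Jun -0.17 and Tyrobp -1.25. Leaving out 1 library at a time gave ranges of -0.48 (library 1 out) to 2.13 for Tnf, -1.59 to 0.32 (library 1 out) for Ifit1, -3.57 to 0.11 (library 2 out) for Xcl1, -2.49 to 1.49 (library 2 out) for Spp1 and -0.28 (library 2 out) to 1.07 for Tyrobp. Spp1 was at 0.41 without cells holding Trdc, Ncr1 or Klrb1c UMIs, and Tyrobp at -0.38 with DESeq2. Depth matching gave Tyrobp -0.41, Jun -0.023 and Atf3 -0.41. Leaving out MHC class II-high cells gave Tyrobp -3.84 and Jun -1.10, and with depth matching Ifit1 0.28 and Jun -1.13. The difference in the share of cells with Cd160 was -0.053 percentage points at 500 UMIs. Against Gzmk-positive and CD4 cells, 42 of 315 and 27 of 204 checks lost the test and none reversed. In each of these comparisons, 19 checks came from leaving out cells under 300 UMIs and likewise could not change. Library 3, with 13 Havcr2-positive cells, limits what a count of 0 can show.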

Other observations

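A pair of genes outside the lists, chosen after their values were seen, also differed between Havcr2-positive and Havcr2-negative CD8 T cells. Fcrl6, an Fc receptor-like gene of cytotoxic lymphocytes, was at 54.7, 50.5 and 64.4 CPM in libraries 1, 2 and 3 against 13.8, 10.2 and 7.30 CPM, a log2 difference of 2.19 ± 0.30 (edgeR adjusted p = 9.68e-11). It was similar in all 3 libraries, and its difference was 2.46 without the MHC class II-high cells. Penk, the gene of the opioid precursor proenkephalin, was at 119, 19.7 and 0 CPM against 18.9, 14.1 and 3.65 CPM (1.95 ± 0.27, edgeR adjusted p = 9.06e-11), so its high level was in library 1.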
